A study of Homo sapiens with 6 samples.

Results

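PANC-1 was compared with the line named 90 across the transcriptome. The comparison took the 3 PANC-1 libraries and the 3 libraries of the 90 line, which are all 6 libraries of the series, and kept the genes whose mean over the 6 was at least 1 FPKM (fragments per kilobase of gene, scaled to library size). These were 12592 of the 41768 genes in the table. PANC-1 is an established human line of pancreatic ductal adenocarcinoma (PDAC), the cancer of the exocrine pancreas and its ducts, and the labels describe the 90 line also as a PDAC cell line. Poly(A)-selected RNA was sequenced from both. Each line had 1 library labelled NC and 2 labelled siALDOA, read here as small interfering RNA against ALDOA, the gene of glycolytic aldolase A. The meaning of the name 90 and of NC, and how siALDOA 1 differs from siALDOA 2, cannot be read from the labels. The labels do not describe the libraries of a line as separate cultures, and the p-values then speak of the spread among these libraries alone, which may be technical. Values of a line are given throughout in the order NC, siALDOA 1 and siALDOA 2.

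Epithelial tumour cells keep their shape through keratin filaments, cadherin and desmosome contacts between cells and laminin-integrin contacts with the basement membrane, under regulators such as GRHL2, KLF5 and ELF3. PDAC lines are commonly placed between a classical state with gut-like secretory genes, a basal-like state with squamous genes such as KRT5 and TP63, and a mesenchymal state with vimentin. Metabolic enzymes often come as isozyme pairs encoded by separate genes, so lines of 1 tumour type can use different genes for the same reaction.

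Depth recovered from the low values was 17.7 to 21.8 M fragments per library, and 3 fragments over 1 kb correspond to 0.14 to 0.17 FPKM, a limit from counting error only. Libraries listed 11133 to 12687 genes at 1 FPKM or more. Genes of low GC content varied most within a line. In the eighth of tested genes with the lowest GC content, the median deviation from the line's mean was 0.91 for siALDOA 1 of 90, 0.72 for siALDOA 2 of PANC-1 and -0.88 for siALDOA 1 of PANC-1, on the log2 scale. In that eighth 9.02% of genes were called, against 55.1% in the seventh eighth, so a low-GC gene that was not called may still differ. MET, the receptor of hepatocyte growth factor, shows this spread, with 12.6, 64.7 and 11.3 FPKM in 90 and 13.9, 4.77 and 34.1 in PANC-1. Genes abundant in 90 and low in PANC-1 were higher in siALDOA 1 of PANC-1 than in its other libraries. For 22 genes at 100 FPKM or more in every 90 library and at 1 FPKM or less on average in the other PANC-1 libraries, the median was 1.55 FPKM there against 0.346 in the other 2. Values near 1 FPKM in that single library are therefore given as they stand, and their source was not tested.

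The main test was limma on log2(FPKM + 1) with terms for line and for siALDOA, and the word called marks genes whose p, adjusted by the Benjamini-Hochberg method, was below 0.05. Differences are PANC-1 minus 90 on that log2 scale, which understates those of low genes. Of the 12592 genes tested, 4882 (38.8%) were called, 2567 (20.4%) higher and 2315 (18.4%) lower in PANC-1. The lines did not overlap in 6811 of the 12592, so lack of overlap alone does not set a gene apart. Over the tested genes the median difference was 0.13, and 0.02 once libraries were scaled by their median ratio to the geometric mean. Of the called genes, the share higher in PANC-1 was 52.6% as deposited, 43.1% after scaling by the median ratio and 64.0% without siALDOA 1 of both lines. Without NC of the 90 line 2359 genes were called, and without NC of PANC-1 2420. Among the 11271 tested genes that reached 1 FPKM in at least 1 library of each line, 3689 (32.7%) were called, 2091 (18.6%) higher and 1598 (14.2%) lower. The other tested genes passed the filter on low values through 1 line alone, so that the means of the lines had to differ. They are named as such in each paragraph. Where they were called, their differences in the main test are given without a p.

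Gene lists for lineage, signalling and metabolism were laid over the comparison. Of the 174 tested lineage genes 78.7% were called, of the 396 signalling genes 60.1% and of the 384 metabolic genes 45.6%. Among members at 1 FPKM or more in both lines these shares were 70.2%, 52.6% and 40.8%, beside 32.7% for all such genes. The median size of the difference, leaving out its sign, was 1.43 for these lineage genes, 0.85 for signalling, 0.59 for metabolism and 0.51 for all genes of that kind. The lists were chosen with earlier results of these libraries known, so the order is a description with no test.

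**Figure D1:**
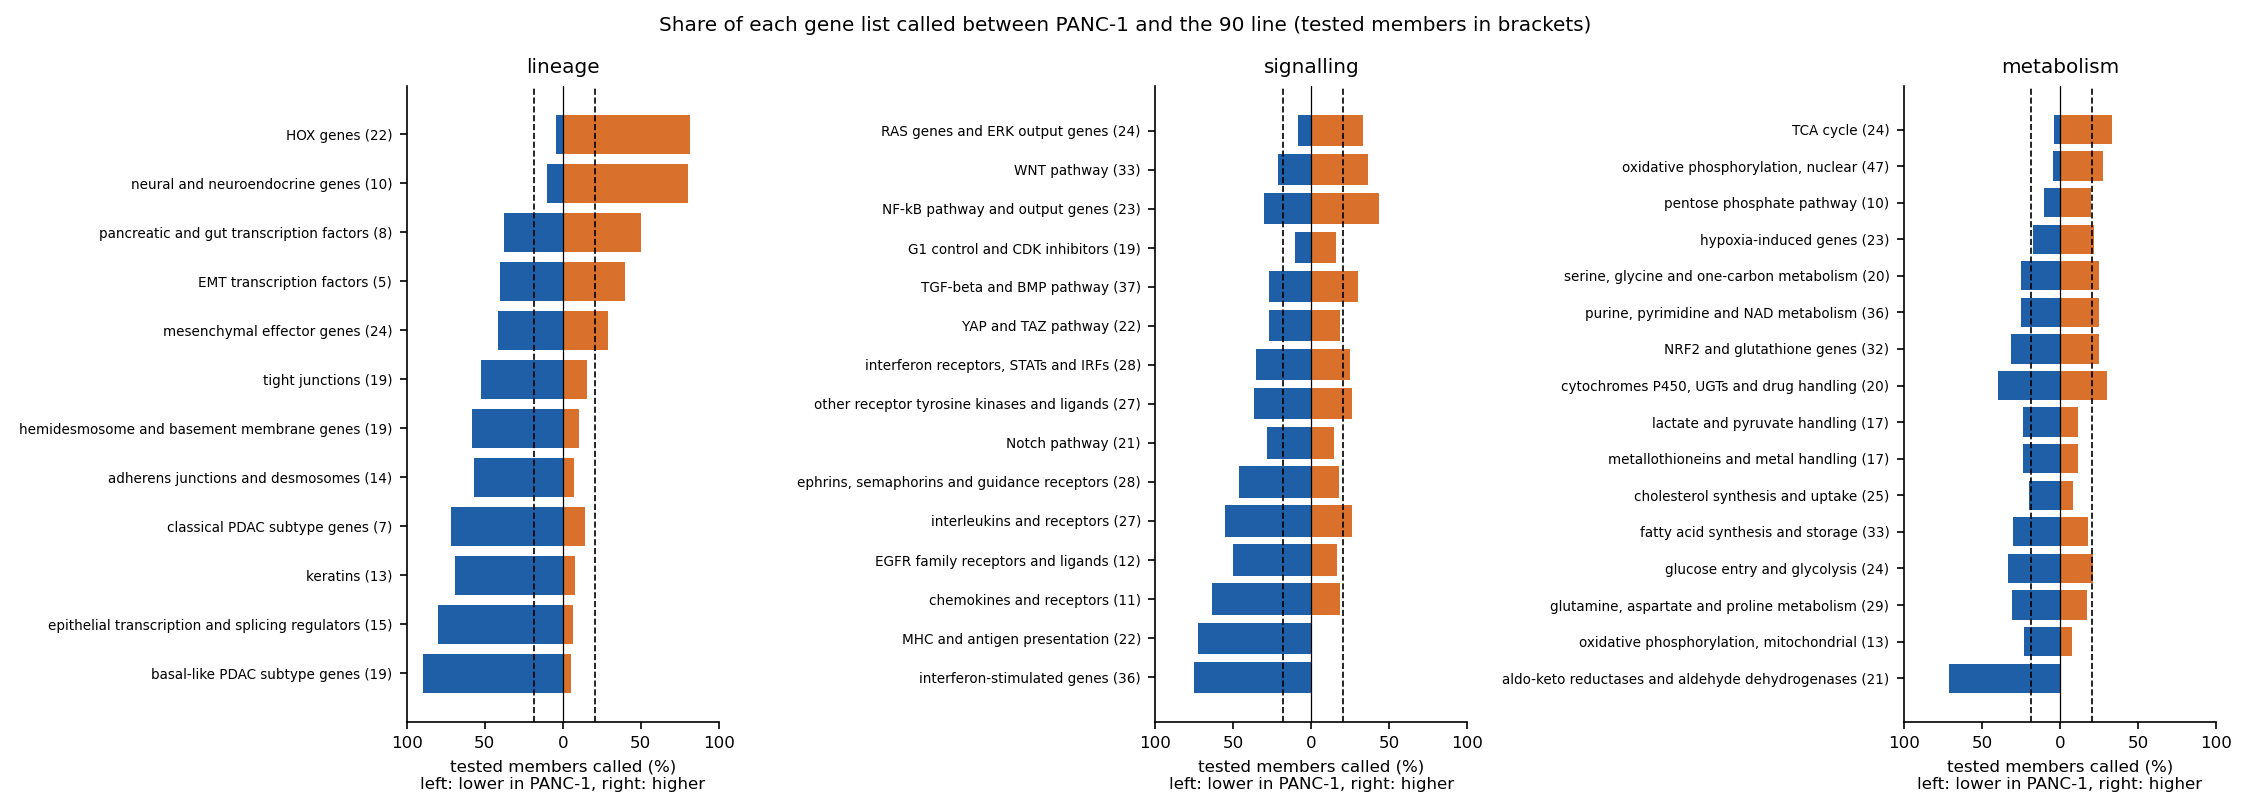
Percent of the tested members called in gene lists with 5 or more of them, with bars to the left for genes lower and to the right for genes higher in PANC-1, with the number of tested members in brackets and dashed lines at the shares over all tested genes (18.4% lower, 20.4% higher). HOX and neural genes lie furthest to the right, and basal-like genes, epithelial regulators and interferon-stimulated genes furthest to the left. The bars include members that passed the filter through 1 line alone, so that their line means had to differ. Through 90 alone these were 10 of 15 epithelial regulators, 13 of 36 interferon-stimulated genes and 8 of 19 basal-like genes. The order of the lists therefore depends in part on the filter.

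Both lines held the keratin pair of simple epithelium and parted over the keratins of stratified epithelium. KRT8 stood at 1319, 1074 and 1506 FPKM in 90 and at 1838, 1968 and 1523 in PANC-1, and its partner KRT18 at 1164, 956 and 1228 and at 1517, 1578 and 1194. KRT18 overlapped between the lines and KRT8 did not, and neither was called (adjusted p = 0.122 and 0.176). KRT19, a ductal keratin, was at 2042, 1720.4 and 2427 FPKM in 90 and 845, 793 and 652 in PANC-1 (difference -1.43 in log2, SE 0.185, adjusted p = 0.00367). Every PANC-1 library lay below every 90 library, yet KRT19 remained among the abundant mRNAs of both lines. KRT7, the other ductal keratin, was at 1209, 905 and 1349.9 FPKM in 90 but at 7.46, 11.5 and 6.24 in PANC-1 (difference -6.96 in log2, SE 0.276, adjusted p = 1.82e-04). KRT17, a keratin of basal and wounded epithelium, was at 312, 260.2 and 372 FPKM in 90 and 0.291, 1.48 and 0.345 in PANC-1, with the highest PANC-1 value in siALDOA 1. Over the list 9 of 13 tested keratins were lower and 1 was higher in PANC-1, and 3 of them passed the filter only through 90. The 1 higher keratin was KRT10, an epidermal differentiation keratin, at 7.04 to 9.24 FPKM in 90 and 14.6 to 30.3 in PANC-1 (1.36, SE 0.216). KRT6A and KRT6B have near-identical copies and are uncertain. Without 1 of the libraries, KRT10 was no longer called (NC of 90 or NC of PANC-1, adjusted p up to 0.0646).

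Most called genes of contacts between cells were lower in PANC-1, among them the cadherins CDH1 and CDH3, with catenins called lower or not called. Another cadherin, CDH2, was higher in PANC-1 and is described with the mesenchymal genes. CDH1, the gene of E-cadherin, was at 44.5, 43 and 38 FPKM in 90 and 1.18, 2.05 and 1.85 in PANC-1 (difference -4.0 in log2, SE 0.189, adjusted p = 2.28e-04). CDH3, or P-cadherin, went the same way, at 29.2 to 39.8 FPKM against 0.799 to 1.52 (-4.06, SE 0.22). EPCAM, an epithelial adhesion molecule, was at 88.6, 154 and 93.2 and 14.2, 7.51 and 17.5 FPKM, lower in each PANC-1 library but still above 7 FPKM there. Of the catenins that link cadherins to the cytoskeleton, JUP and CTNND1 were lower (-1.32, SE 0.215 and -0.87, SE 0.205). CTNNA1 and CTNNB1 were not called: CTNNA1 stood at 101 to 112 FPKM in 90 and 81.2 to 90.6 in PANC-1, and CTNNB1 at 32 to 55.3 and 48.5 to 63.8. Of 14 tested adherens junction and desmosome genes, 8 were lower, 1 was higher and 5 were not called (median -1.68). PERP, a desmosomal protein, was the higher one, at 45, 65.6 and 43.8 FPKM in 90 and 164, 159 and 213 in PANC-1 (difference 1.79 in log2, SE 0.208, adjusted p = 0.00261). Desmoplakin (DSP) had a fold as large as many called genes (-2.09, SE 0.691) but was spread from 4.99 to 28 FPKM within the 90 line and from 0.946 to 3.75 within PANC-1, and was not called (adjusted p = 0.0687). Leaving out a single library ended the calls of JUP and CTNND1 (NC of 90, siALDOA 1 of 90, NC of PANC-1, siALDOA 1 of PANC-1 or siALDOA 2 of PANC-1, adjusted p up to 0.156).

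Tight junction genes split. CLDN4 stood at 105, 78.7 and 117 FPKM in 90 and 90.9, 114 and 77.6 in PANC-1, overlapping between the lines, and CLDN7 at 48.4, 39.5 and 52.7 and 13.7, 14.1 and 12.8, without overlap (difference -1.71 in log2, SE 0.158, adjusted p = 0.00128). CLDN3 was higher, from 0.564 to 1.19 FPKM in 90 to 5.4 to 8.01 in PANC-1 (1.98, SE 0.241), and so did OCLN, the gene of occludin (1.49, SE 0.405). Large differences were those of RAB25, a GTPase of apical recycling (90 68.1 to 92 FPKM, PANC-1 0.313 to 0.844), and of ST14, the membrane protease matriptase (90 62.2 to 89.8, PANC-1 0.663 to 1.94). The inhibitors of matriptase went apart, SPINT1 lower in PANC-1 (-3.90, SE 0.197) and SPINT2 higher (0.91, SE 0.179). In all 10 of 19 tested members were lower and 3 higher. Among the 15 that reached 1 FPKM in both lines 6 were lower and 3 higher (median -0.17). OCLN and SPINT2 were not called once 1 library was left out (NC of 90, siALDOA 2 of 90, NC of PANC-1 or siALDOA 2 of PANC-1, adjusted p up to 0.153). SPINT2 lost its call after scaling by the median ratio. Passing the filter through 1 line alone applied to RAB25 (90).

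The laminin of hemidesmosomes and its receptor were lower in PANC-1. This laminin, whose chains include LAMA3 and LAMB3, anchors basal epithelial cells through the integrin that contains ITGB4. LAMB3 was at 303, 265 and 386 FPKM in 90 and 0.596, 1.9 and 0.879 in PANC-1 (difference -7.26 in log2, SE 0.261, adjusted p = 1.79e-04). ITGB4 was at 360.4, 290.0 and 404 FPKM in 90 and 5.47, 7.7 and 5.5 in PANC-1 (difference -5.61 in log2, SE 0.203, adjusted p = 1.79e-04). For both genes every PANC-1 library lay far below every 90 library. Among chains of other laminins LAMA5 and LAMB2 were lower (-1.14, SE 0.193 and -1.08, SE 0.166), while LAMB1 at 16 to 42.3 FPKM in 90 and 20.1 to 37.9 in PANC-1 and LAMC1 at 30.3 to 41 and 20.5 to 27.6, neither called. NID1, a linker of laminin and collagen networks, was higher in PANC-1 (1.44, SE 0.157), and so was the tetraspanin CD151 (1.16, SE 0.199). Of 19 tested genes 11 were lower and 2 higher, and 4 of the lower ones passed the filter only through 90. The calls of LAMA5, LAMB2 and CD151 were lost without 1 of the libraries (NC of 90 or NC of PANC-1, adjusted p up to 0.0757). CD151 lost its call after scaling by the median ratio.

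Regulators of epithelial identity were mostly lower in PANC-1. GRHL2, which activates CDH1 and claudin genes, was at 13, 14.5 and 8.57 FPKM in 90 and 0.0556, 0.114 and 0.0408 in PANC-1 (difference -3.58 in log2). KLF5 was at 23.8, 48.3 and 18.8 and 0.299, 0.475 and 0.419 FPKM. TP63, whose product drives squamous genes, was at 7.28, 10.4 and 4.06 FPKM in 90 and 0.0391, 0.102 and 0.0323 in PANC-1 (difference -2.89 in log2). None of these 3 genes reached 0.5 FPKM in any PANC-1 library. ELF3, an epithelial ETS factor, was above 2 FPKM in each PANC-1 library, at 2.1, 2.41 and 2.38 FPKM against 29.7, 26.5 and 33.7 in 90 (difference -3.22 in log2, SE 0.165, adjusted p = 2.55e-04). The splicing regulators of epithelial exons parted, ESRP1 at 12 to 30.5 FPKM in 90 and 0.458 to 0.869 in PANC-1, but ESRP2 at 11.7 to 13.9 and 10.1 to 10.6 and not called. TFAP2A, a surface-ectoderm factor, was not called either (0.21, SE 0.157), and GRHL3, a relative of GRHL2, was higher in PANC-1 (1.35, SE 0.174). Of 15 tested regulators 12 were lower and 1 was higher. Of these 10 passed the filter only through 90, and of the 5 at 1 FPKM or more in both lines 2 were lower and 1 higher. In this group GRHL2, KLF5, TP63 and ESRP1 (90) passed the filter through 1 line alone.

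A microRNA host gene was also higher in 90. MIR205HG, the host transcript of miR-205, a microRNA of epithelial and squamous cells that targets ZEB1 and ZEB2, was at 80.4, 84.4 and 65.1 FPKM in 90 and 0, 0.411 and 0 in PANC-1 (difference -6.10 in log2). All 3 PANC-1 values were under 0.5 FPKM. Low values in the other line left MIR205HG (90) passing the filter through 1 line alone. The libraries were poly(A)-selected, so the mature microRNA was not measured. Its arms are shown because they define the product of that transcript, from RefSeq (GRCh38.p14, plus strand of chromosome 1, 209432166 to 209432187 and 209432203 to 209432223), with the seed, bases 2 to 8, in capitals.
hsa-miR-205-5p: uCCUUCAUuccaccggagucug
hsa-miR-205-3p: gAUUUCAGuggagugaaguuc

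Mesenchymal genes did not move as a block. Vimentin (VIM), the intermediate filament of mesenchymal cells, was abundant in both lines, at 728, 593 and 802 FPKM in 90 and 2258, 2322 and 1976 in PANC-1 (difference 1.63 in log2, SE 0.162, adjusted p = 0.00159). N-cadherin (CDH2) was at 1.12, 1.39 and 0.866 and 5.29, 5.5 and 7.82 FPKM (difference 1.75 in log2, SE 0.221, adjusted p = 0.00337). Both were higher in every PANC-1 library. Fibronectin (FN1) was lower instead, at 11.1, 10.8 and 10.8 FPKM in 90 and 0.369, 0.51 and 0.406 in PANC-1, and so did TAGLN, an actin-binding protein of contractile cells, at 128, 92.8 and 132 and 2.27, 2.76 and 2.5 (difference -5.06 in log2, SE 0.193, adjusted p = 1.79e-04). MMP14, a membrane collagenase, was lower as well (-4.04, SE 0.217), and the receptor kinase AXL was at 69 to 81.9 FPKM in 90 and 73.7 to 94 in PANC-1 and not called. In total 7 of 24 tested effector genes were higher and 10 lower in PANC-1 (median -0.09). Through 1 line alone the filter was passed by FN1 (90).

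The transcription factors of epithelial-mesenchymal transition were divided between the lines. SNAI2, or Slug, was at 23.6, 32.2 and 18.2 FPKM in 90 and 0.0688, 0.325 and 0.177 in PANC-1 (difference -4.40 in log2), and SNAI1, or Snail, at 0.198, 0.51 and 0.553 and 8.22, 8.52 and 6.12 (difference 2.60 in log2). FOXC2 was listed at 0 to 0.0312 FPKM in 90 and at 10.5 to 12.6 in PANC-1. ZEB1, a repressor of CDH1, was at 0.0171, 0.75 and 0.096 FPKM in 90 and 1.06, 0.0906 and 4.23 in PANC-1. The lines overlapped, siALDOA 1 of PANC-1 lying below siALDOA 1 of 90, and ZEB1 was not called (0.86, adjusted p = 0.35). Of 5 tested factors 2 were higher and 2 lower. Values of 1 line alone carried SNAI2 (90) and SNAI1, FOXC2 and ZEB1 (PANC-1) past the filter.

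Pancreatic and subtype genes gave no single picture. PDX1, a factor of pancreatic identity, was at 1.64, 1.34 and 1.29 FPKM in 90 and 1.58, 2.01 and 1.33 in PANC-1, overlapping and not called. FOXA2, an endoderm factor, was higher in PANC-1, at 23.7, 25.2 and 18.9 FPKM against 8.55, 6.58 and 9.37 (difference 1.37 in log2, SE 0.2, adjusted p = 0.00544), and so was SOX9, a ductal factor, at 23.1, 26.7 and 26.5 against 14.3, 14.2 and 11.8 (difference 0.87 in log2, SE 0.152, adjusted p = 0.00943). GATA4 was higher too (0.98, SE 0.177), whereas GATA6, its relative that marks the classical state, was at 6.87 to 7.54 FPKM in 90 and 0.0991 to 0.364 in PANC-1. In all 4 of 8 tested pancreatic and gut factors were higher and 3 lower, and of 4 tested mucins 1 and 2. Of 24 classical subtype genes in the table only 7 were tested, and 4 of those passed through 90 alone. Of the 7 tested, 5 were lower and 1 higher (median -2.35). Among the 3 at 1 FPKM or more in both lines 1 was lower and 1 higher. The untested ones include TFF1, TFF2, LYZ and REG4. Basal-like genes were lower in 17 of 19, and in 9 of the 11 at 1 FPKM or more in both lines. KRT5, the basal keratin, was at 759, 618 and 791 FPKM in 90 and 0.463, 3.68 and 0.811 in PANC-1 (difference -8.28 in log2, SE 0.445, adjusted p = 2.91e-04). S100A2, a calcium-binding protein of basal cells, illustrates those measured in both, at 926, 772 and 1095 FPKM in 90 and 13.4, 16.9 and 9.37 in PANC-1 (difference -6.05 in log2, SE 0.26, adjusted p = 2.06e-04). CTSV, the gene of cathepsin V, was the 1 basal-like gene higher in PANC-1 (1.54, SE 0.321), and KRT15 was not called (0.15, SE 0.152). With 1 library fewer, FOXA2, SOX9, GATA4 and CTSV did not pass (NC of 90, siALDOA 2 of 90, NC of PANC-1 or siALDOA 2 of PANC-1, adjusted p up to 0.108). SOX9 lost its call after scaling by the median ratio. GATA4 lost its call after scaling by the median ratio and quantile normalization. The filter on low values was passed through 1 line alone by GATA6 (90).

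Genes of neurons and neuroendocrine cells were higher in PANC-1. NES, the gene of the progenitor filament nestin, was at 5.48, 5.56 and 6.4 FPKM in 90 and 65.7, 79.6 and 61 in PANC-1 (difference 3.35 in log2, SE 0.158, adjusted p = 2.28e-04). L1CAM, an adhesion molecule of axons, was at 6.5, 6.25 and 9.92 and 73.2, 93.4 and 76.4 (difference 3.28 in log2, SE 0.203, adjusted p = 4.20e-04), and TUBB3, neuronal β-tubulin, at 52.8, 47.4 and 73.5 and 245, 275 and 209 (difference 2.07 in log2, SE 0.216, adjusted p = 0.00185). BASP1, a membrane protein of growth cones, was at 0.417, 0.734 and 0.751 FPKM in 90 and 138, 142 and 108 in PANC-1. NES, L1CAM and TUBB3 reached 1 FPKM in both lines, and for them all PANC-1 libraries lay above all 90 libraries. Lack of overlap was seen in 6811 of the 12592 tested genes. In the list 8 of 10 tested members were higher and 1, SCG5, lower (-0.95), and 3 of the higher ones passed the filter only through PANC-1. The other members, among them CHGA and INSM1, were too low to be tested. When each library was left out in turn, SCG5 lost its call at least once (NC of PANC-1 or siALDOA 2 of PANC-1, adjusted p up to 0.0937). SCG5 lost its call after quantile normalization. Passing the filter through 1 line alone applied to SCG5 (90) and BASP1 (PANC-1).

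HOX genes, which record position along the body axis, were higher in PANC-1, mainly in the HOXB and HOXC clusters. In the HOXB cluster all 9 tested genes were higher (median 1.67), and in the HOXC cluster 7 of 8 (median 1.86). In the HOXA cluster 2 of 5 were higher and 1 lower, and none of the 9 HOXD genes reached the filter. HOXC10 was at 0.574, 1.15 and 0.831 FPKM in 90 and 39, 45.1 and 38.2 in PANC-1 (difference 4.50 in log2, SE 0.173, adjusted p = 1.79e-04), and HOXC13 at 0.188, 0.193 and 0.0658 and 28.2, 30.3 and 24.6 (difference 4.64 in log2). HOXB9 was at 9.44, 8.39 and 9.49 FPKM in 90 and 24.1, 29.3 and 26 in PANC-1 (difference 1.44 in log2, SE 0.147, adjusted p = 0.00172), so the 90 line expressed HOXB genes too. Neighbouring HOX genes share a chromosome segment and are not independent. The 22 tested HOX genes include 4 that passed only through PANC-1. In this group HOXC13 (PANC-1) passed the filter through 1 line alone.

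**Figure D2:**
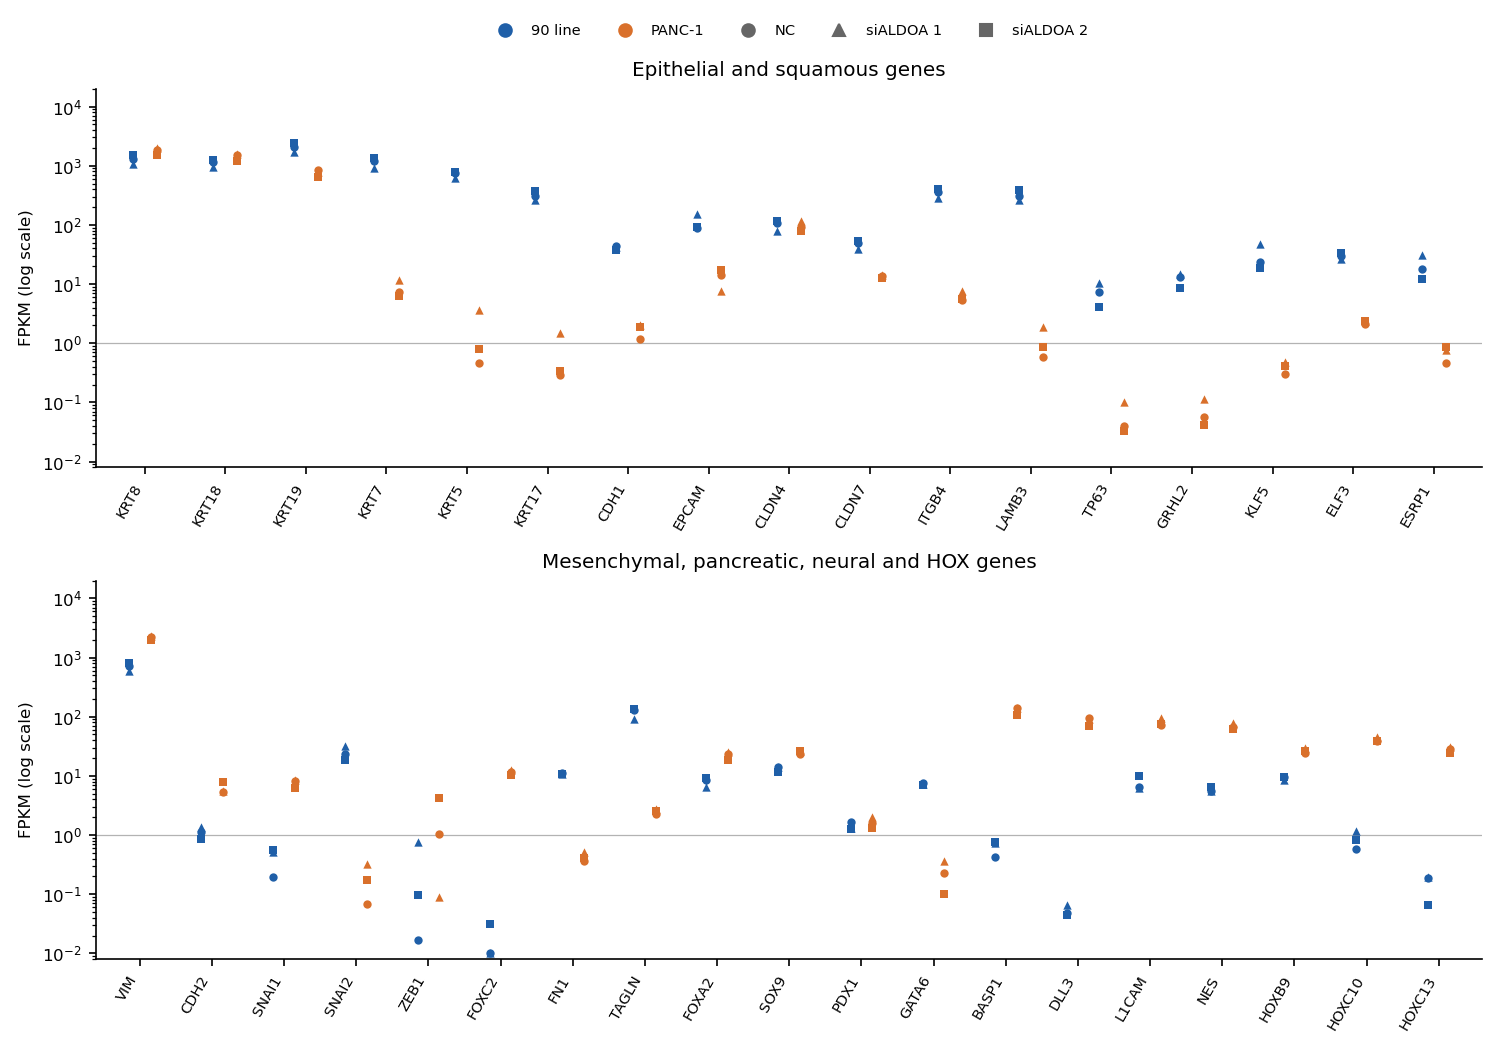
Levels of lineage genes in FPKM (log axis, values under 0.01 drawn at 0.01) in each library, 90 in blue and PANC-1 in orange, with circles for NC, triangles for siALDOA 1 and squares for siALDOA 2. KRT8, KRT18, CLDN4 and PDX1 lie close together, KRT5, LAMB3 and TP63 lie far higher in 90 than in PANC-1, and BASP1, DLL3 and HOXC13 the reverse.

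Among growth factor receptors EGFR itself was not called, but partners and ligands of it were lower in PANC-1. EGFR stood at 16.4, 27 and 9.68 FPKM in 90 and 12.5, 13.8 and 23.5 in PANC-1 and was not called (adjusted p = 0.966). ERBB2 was at 34, 28.6 and 39.4 and 8.25, 10.5 and 8.79 FPKM (difference -1.78 in log2, SE 0.182, adjusted p = 0.00173), and ERBB3, which signals through ERBB2, at 6.13, 6.25 and 6.04 and 0.295, 0.398 and 0.204 (difference -2.46 in log2). Of the ligands, TGFA was at 28.4, 29.5 and 19.5 FPKM in 90 and 0.423, 0.42 and 0.215 in PANC-1, and AREG at 33.6, 30.9 and 28.4 and 4.31, 4.07 and 4.87 (difference -2.56 in log2, SE 0.15, adjusted p = 3.61e-04). Of these, ERBB2 and AREG reached 1 FPKM in both lines, and neither overlapped between them. ERRFI1, a feedback inhibitor of EGFR, was higher in PANC-1, at 95.2, 88.8 and 129.8 FPKM against 14.6, 18.6 and 8.93 (difference 2.85 in log2, SE 0.315, adjusted p = 0.0022). Of 12 tested genes 6 were lower, 2 higher and 4 not called (median -0.92). Low values in the other line left ERBB3 and TGFA (90) passing the filter through 1 line alone.

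Among the feedback genes of the RAS and ERK route, DUSP4 and DUSP6 were lower in PANC-1, and SPRY4 and SPRED2 were higher. The ERK phosphatase genes DUSP4 and DUSP6 were lower in PANC-1, DUSP4 at 32.2, 27.7 and 29.5 FPKM in 90 and 0.0527, 0.306 and 0.0912 in PANC-1, and DUSP6 at 49.9, 47.9 and 36.3 and 5.53, 5.58 and 5.7 (difference -2.78 in log2, SE 0.168, adjusted p = 3.92e-04). Of the Sprouty-type inhibitors, SPRY4 was at 8.33, 6.95 and 6.35 FPKM in 90 and 14.4, 18 and 15.6 in PANC-1 (difference 1.05 in log2, SE 0.178, adjusted p = 0.00878). SPRED2 was at 7.41, 7.36 and 4.55 and 13.8, 16.1 and 17.4 FPKM (difference 1.19 in log2, SE 0.237, adjusted p = 0.0148). FOSL1, an AP-1 subunit downstream of ERK, was higher (0.88, SE 0.158). Of all tested genes 38.8% were called, and of the 24 in this list 41.7%, with 8 higher, 2 lower and 14 not called. After scaling by the median ratio 5 higher and 2 lower of them were called. Without 1 of the libraries, SPRED2 and FOSL1 were no longer called (NC of 90, NC of PANC-1 or siALDOA 2 of PANC-1, adjusted p up to 0.0694). FOSL1 lost its call after scaling by the median ratio. Through 1 line alone the filter was passed by DUSP4 (90).

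Insulin-like growth factor genes and other receptor kinases were mixed. The receptors IGF1R (1.23, SE 0.221) and IGF2R (1.25, SE 0.194) were higher in PANC-1. The binding proteins exchanged places: IGFBP6 was at 371, 286 and 438 FPKM in 90 and 3.06, 4.22 and 3.09 in PANC-1 (difference -6.35 in log2, SE 0.217, adjusted p = 1.79e-04), and IGFBP2 at 0.393, 0.0359 and 0.294 and 17.5, 13.7 and 11.6 (difference 3.61 in log2). IGFBP6, which reached 1 FPKM in both lines, was lower in every PANC-1 library. MST1R, or RON, and the collagen receptor DDR1 were lower (-2.19, SE 0.193 and -2.35, SE 0.178), while FGFR1 was higher (0.89, SE 0.181). The list had 7 higher and 10 lower of 27 tested. Leaving out a single library ended the calls of IGF1R and FGFR1 (each of the 6 for at least 1 of them, adjusted p up to 0.0731). FGFR1 lost its call after scaling by the median ratio and quantile normalization. Values of 1 line alone carried IGFBP2 (PANC-1) past the filter.

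B-type ephrins were lower in PANC-1, and plexins differed in both directions. These molecules guide cell positioning and cell repulsion. EFNB1 was at 33.5, 29.8 and 38.3 FPKM in 90 and 4.02, 3.99 and 2.34 in PANC-1 (difference -2.99 in log2, SE 0.228, adjusted p = 7.43e-04), and EFNB2 at 43.9, 54.6 and 29.8 and 1.79, 2.34 and 2.56 (difference -3.73 in log2, SE 0.272, adjusted p = 6.55e-04). The receptor gene EPHA2 was at 106 to 152 FPKM in 90 and 134 to 182 in PANC-1 and not called, and EPHB2 was higher (0.63, SE 0.171). Plexin receptors went both ways, PLXNB2 lower (-1.58, SE 0.171) and PLXND1 higher (1.65, SE 0.177). The secreted semaphorin SEMA3B was at 38.7 to 50.7 FPKM in 90 and 0.248 to 0.383 in PANC-1, and the membrane-bound SEMA4B was higher in PANC-1 (1.24, SE 0.156). Of 28 tested genes 13 were lower and 5 higher. EPHB2 was not called once 1 library was left out (NC of 90, siALDOA 1 of 90, NC of PANC-1, siALDOA 1 of PANC-1 or siALDOA 2 of PANC-1, adjusted p up to 0.184). EPHB2 lost its call after scaling by the median ratio. The filter on low values was passed through 1 line alone by SEMA3B (90).

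The TGF-beta family differed in its ligands and extracellular modulators. BMP4 was at 32.6, 31.2 and 39.6 FPKM in 90 and 0.0499, 0.118 and 0.055 in PANC-1 (difference -5.04 in log2), with all PANC-1 values under 0.5 FPKM. The activin antagonist follistatin (FST) was also lower, at 6.04 to 8.49 against 0.0171 to 0.113 FPKM. Activin βB (INHBB) was higher in PANC-1, at 15.4, 21.5 and 16.8 FPKM against 1.83, 1.59 and 1.87 (difference 2.76 in log2, SE 0.19, adjusted p = 5.38e-04), as was GDF15 (2.29, SE 0.26). The co-receptor endoglin (ENG) was at 3.62, 2.04 and 3.69 and 24.8, 29.5 and 22.3 FPKM (difference 2.71 in log2, SE 0.245, adjusted p = 0.00121), and LTBP2, a latent TGF-beta binding protein, at 4.48, 4.41 and 4.68 and 35.2, 50.2 and 43.9 (difference 2.98 in log2, SE 0.157, adjusted p = 2.75e-04). Signal transducers differed less. SMAD4, a tumour suppressor of PDAC, stood at 0.869 to 3.15 FPKM in 90 and 1.11 to 3.44 in PANC-1 and was not called. TGFBR2 was not called either (-0.58, SE 0.266), and SMAD3 was slightly higher (0.51, SE 0.117). In total 11 of 37 tested genes were higher, 10 lower and 16 not called. The call of SMAD3 was lost without 1 of the libraries (each of the 6 in turn, adjusted p up to 0.099). SMAD3 lost its call after scaling by the median ratio and quantile normalization. Passing the filter through 1 line alone applied to BMP4 and FST (90).

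Several WNT pathway genes were far higher in PANC-1, others far lower. WNT5B was at 0, 0.0462 and 0.0473 FPKM in 90 and 31, 33.6 and 25.9 in PANC-1 (difference 4.91 in log2). ROR2, a receptor of such WNTs, was at 0 to 0.0256 FPKM in 90 and 2.59 to 3.42 in PANC-1, and ROR1 at 0.144 to 0.517 and 1.09 to 4.66. The secreted antagonist SFRP1 was at 0.0115 to 0.0252 in 90 and 13.3 to 15.9 in PANC-1. DKK3, a secreted dickkopf relative, was measured in both lines, at 4.51, 4.93 and 8.49 FPKM in 90 and 67.7, 69.2 and 59.4 in PANC-1 (difference 3.29 in log2, SE 0.244, adjusted p = 6.82e-04), and DKK1 was high in both and not called (0.39, SE 0.251). On the other side, PORCN, the acyltransferase that WNT secretion needs, was lower in PANC-1, at 4.74, 5.77 and 3.38 FPKM against 47.2, 36 and 49.4 (difference -3.02 in log2, SE 0.235, adjusted p = 7.98e-04). LGR6, a stem-cell receptor of R-spondins, was at 4.05 to 6.24 FPKM in 90 and 0.0397 to 0.0463 in PANC-1. Of 33 tested genes 12 were higher and 7 lower, and among the 22 at 1 FPKM or more in both lines 5 and 4. With 1 library fewer, ROR1 did not pass (NC of 90, siALDOA 1 of 90, siALDOA 2 of 90 or NC of PANC-1, adjusted p up to 0.188). In this group LGR6 (90) and WNT5B, ROR2, ROR1 and SFRP1 (PANC-1) passed the filter through 1 line alone.

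Notch ligands differed in both directions. JAG1 and JAG2 were lower in PANC-1 (-1.08, SE 0.199 and -1.43, SE 0.196), JAG2 at 15.6, 19.7 and 14.9 FPKM against 48, 38.5 and 54. DLL3, a Notch ligand that acts within the cell and is known from neuroendocrine tumours, was at 0.0472, 0.0646 and 0.0441 FPKM in 90 and 95.1, 92.8 and 69.7 in PANC-1. The receptor NOTCH1 was lower (-0.95, SE 0.211) and NOTCH2 was not called (0.85, SE 0.258). The target HES1 was not called, at 13.7 to 17.9 and 10.8 to 13.6 FPKM, and HES6 was higher in PANC-1 (2.06, SE 0.302). Of 21 tested genes 6 were lower and 3 higher, so 42.9% were called, near the 38.8% of all tested genes. In the Hedgehog list 3 genes were tested and none was called, SHH for example at 4.69 to 5.03 FPKM in 90 and 4.54 to 6.62 in PANC-1. When each library was left out in turn, JAG1, NOTCH1 and HES6 lost their calls at least once (NC of 90, siALDOA 2 of 90, NC of PANC-1 or siALDOA 2 of PANC-1, adjusted p up to 0.156). NOTCH1 lost its call after quantile normalization. Low values in the other line left DLL3 (PANC-1) passing the filter through 1 line alone.

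Targets of YAP and TAZ, the coactivators of the Hippo pathway, split both ways. CTGF and CYR61, which encode secreted matricellular proteins, were higher in PANC-1, CTGF at 14.4, 9.78 and 8.61 FPKM in 90 and 59, 69.4 and 55.3 in PANC-1 (difference 2.41 in log2, SE 0.203, adjusted p = 0.00101) and CYR61 at 46.6, 34.3 and 44 and 222, 249 and 183 (difference 2.36 in log2, SE 0.18, adjusted p = 7.38e-04). ANKRD1, another target, was lower, at 5.03, 2.74 and 8.46 FPKM against 38.9, 78.3 and 21.7 (difference -2.80 in log2, SE 0.592, adjusted p = 0.0181). WWTR1, the gene of TAZ, was higher in PANC-1 (1.78, SE 0.305), and YAP1 was not called (-0.24, SE 0.64). The list as a whole had 4 higher and 6 lower of 22 tested, so 45.5% were called beside 38.8% of all tested genes. Without 1 of the libraries, ANKRD1 and WWTR1 were no longer called (NC of 90 or NC of PANC-1, adjusted p up to 0.0931).

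Most interferon-stimulated genes were lower in PANC-1. These genes are switched on by the ISGF3 complex, which contains STAT2 and IRF9 and binds the interferon-stimulated response element (ISRE). The promoters of the 3 listed genes with the largest differences, IFI27, BST2 and IFI6, and of IFIH1, which was not called, are shown since the list moved together. Each run is 300 bases, from 250 before to 50 after the RefSeq start (GRCh38.p14). Capitals mark matches to GAAANNGAAA or its reverse complement TTTCNNTTTC, and matches in BST2 and IFIH1 overlap each other.
IFI27 (chr14:94110486-94110785, plus strand): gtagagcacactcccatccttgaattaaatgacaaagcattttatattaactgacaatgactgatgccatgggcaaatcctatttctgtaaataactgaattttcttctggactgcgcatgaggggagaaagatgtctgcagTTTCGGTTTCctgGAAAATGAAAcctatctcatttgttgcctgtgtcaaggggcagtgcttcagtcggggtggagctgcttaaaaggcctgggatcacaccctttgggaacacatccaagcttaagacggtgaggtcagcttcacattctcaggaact
BST2 (chr19:17405581-17405880, minus strand): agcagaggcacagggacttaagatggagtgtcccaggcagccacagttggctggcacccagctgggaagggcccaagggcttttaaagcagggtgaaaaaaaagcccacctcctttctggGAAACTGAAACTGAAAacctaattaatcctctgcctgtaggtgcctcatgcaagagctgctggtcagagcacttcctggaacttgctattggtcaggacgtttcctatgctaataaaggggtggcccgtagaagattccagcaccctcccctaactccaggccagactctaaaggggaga
IFI6 (chr1:27672143-27672442, minus strand): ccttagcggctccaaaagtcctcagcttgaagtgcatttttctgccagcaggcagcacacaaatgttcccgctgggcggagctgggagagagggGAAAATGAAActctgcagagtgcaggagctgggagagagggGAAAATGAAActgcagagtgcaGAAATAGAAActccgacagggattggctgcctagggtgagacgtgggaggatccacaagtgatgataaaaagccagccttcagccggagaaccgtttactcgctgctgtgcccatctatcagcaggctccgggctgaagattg
IFIH1 (chr2:162318635-162318934, minus strand): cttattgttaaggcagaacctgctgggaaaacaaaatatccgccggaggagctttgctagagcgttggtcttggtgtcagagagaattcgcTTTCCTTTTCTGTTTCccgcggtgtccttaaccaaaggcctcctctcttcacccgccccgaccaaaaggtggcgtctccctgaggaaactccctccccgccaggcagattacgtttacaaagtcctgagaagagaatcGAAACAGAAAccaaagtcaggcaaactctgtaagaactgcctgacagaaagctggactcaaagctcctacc

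The motif was found in 13 of the 20 promoters available for the lower genes, in 4 of the 7 for those not called, and in 1255 (3.57%) of 35116 promoters of the same length. A match is a description of the letters and not a measured binding site.

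ISG15, a ubiquitin-like modifier and one of the most strongly induced interferon genes, was at 1234, 1704 and 2778 FPKM in 90 and 91.3, 90.4 and 61.2 in PANC-1 (difference -4.48 in log2, SE 0.342, adjusted p = 7.46e-04). IFI27, whose promoter is shown above, was at 2328, 2393 and 3942 FPKM and 1.73, 9.73 and 2.34 (difference -9.25 in log2, SE 0.506, adjusted p = 3.03e-04). IFI6, a mitochondrial protein, was at 745, 1108 and 1820.3 and 13.8, 21.3 and 11.2 FPKM (difference -6.17 in log2, SE 0.347, adjusted p = 3.23e-04). OAS2, which makes the activator of RNase L, was at 46.9, 89.6 and 71.3 FPKM in 90 and 0.173, 0.49 and 0.205 in PANC-1. For ISG15, IFI27 and IFI6, which reached 1 FPKM in both lines, all PANC-1 libraries lay below all 90 libraries. In 90 these genes and OAS2 were lowest in NC. Not every member was low in PANC-1: MX2, a dynamin-like antiviral GTPase, stood at 12.2, 22.3 and 22.5 FPKM in 90 and 16.8, 22.4 and 18.4 in PANC-1 and was not called, whereas its relative MX1 was at 40.9, 70.7 and 93.4 and 0.622, 1.12 and 0.623 (difference -5.21 in log2, SE 0.256, adjusted p = 2.39e-04). IFITM3, a membrane protein that blocks virus entry, kept 418 to 553 FPKM in PANC-1 against 1367 to 2400.3 in 90 (-1.76, SE 0.266). Of the 36 tested genes 27 were lower, 0 were higher and 9 were not called (median -3.0), and 13 passed the filter only through 90. Of the 23 at 1 FPKM or more in both lines 17 were lower. The sensors DDX58 and IFIH1, not called, were spread within the 90 line from 2.46 to 29.9 and from 1.45 to 15.4 FPKM. Through 1 line alone the filter was passed by OAS2 (90).

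The factors that carry the interferon signal differed by branch. IRF9, the DNA-binding part of ISGF3, was at 109, 95.3 and 125 FPKM in 90 and 5.49, 5.59 and 4.9 in PANC-1 (difference -4.12 in log2, SE 0.156, adjusted p = 1.79e-04). STAT2 was lower by less (-0.92, SE 0.177). IRF7, the amplifier of interferon production, and TMEM173, the gene of STING, were lower (-2.13, SE 0.267 and -2.28, SE 0.221). The receptor genes IFNAR1 and IFNGR2 were not called, IFNAR1 at 2.03 to 7.79 FPKM in 90 and 1.48 to 4.62 in PANC-1, and IFNGR2 at 23.8 to 26.1 and 29.5 to 36.9. The STATs of the cytokine branch were higher in PANC-1. STAT3 was at 20.8, 20.5 and 23.4 FPKM in 90 and 62.4, 82.6 and 72.1 in PANC-1 (difference 1.70 in log2, SE 0.135, adjusted p = 8.41e-04), STAT5A at 1.5, 1.48 and 1.8 and 16.8, 21.7 and 15.6 (difference 2.87 in log2, SE 0.194, adjusted p = 5.25e-04) and STAT5B at 8.81, 7.08 and 7.82 and 39.1, 43.1 and 38.8 (difference 2.22 in log2, SE 0.142, adjusted p = 4.62e-04). These 3 lie side by side on chromosome 17, from 42199177 to 42388442, so they are not independent. SOCS3, a feedback inhibitor induced by STAT3, was higher as well, at 34.7, 39.6 and 30.1 FPKM against 11.8, 8.57 and 10.7 (difference 1.66 in log2, SE 0.18, adjusted p = 0.00206). Of 28 tested genes of this list 10 were lower and 7 higher. Leaving out a single library ended the call of STAT2 (NC of 90, siALDOA 2 of 90, NC of PANC-1 or siALDOA 2 of PANC-1, adjusted p up to 0.0747). STAT2 lost its call after quantile normalization.

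Antigen presentation genes were lower in PANC-1, unevenly. HLA-B, a heavy chain of MHC class I, was at 274, 306 and 517 FPKM in 90 and 20.1, 19.6 and 14.5 in PANC-1 (difference -4.23 in log2, SE 0.292, adjusted p = 5.48e-04), and HLA-C at 260.4, 274 and 463 and 31.2, 35.5 and 24.7 (difference -3.37 in log2, SE 0.276, adjusted p = 9.14e-04). Beta-2-microglobulin (B2M), the shared light chain, was at 1778, 2430.3 and 2074 FPKM in 90 and 716, 495 and 687 in PANC-1 (difference -1.73 in log2, SE 0.214, adjusted p = 0.00317), lower in every PANC-1 library but still abundant. The peptide transporter TAP1 and the immunoproteasome subunit PSMB8 were lower (-2.55, SE 0.204 and -3.02, SE 0.198), and so was NLRC5, the transactivator of class I genes (-2.33). CALR, a chaperone of class I folding, was not called (-0.25, SE 0.171). In all 16 of 22 tested genes were lower and 0 higher, with 14 of 20 among those measured in both lines. HLA genes are polymorphic and alike, so how reads were shared among them can move their values. How far that applies here was not tested. Values of 1 line alone carried NLRC5 (90) past the filter.

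Genes of NF-kB went both ways. ICAM1, an adhesion molecule induced by NF-kB, was at 11.5, 8.28 and 11 FPKM in 90 and 77, 95.7 and 70.1 in PANC-1 (difference 2.86 in log2, SE 0.198, adjusted p = 5.53e-04). BCL2A1, an antiapoptotic target, was at 0 to 0.0557 in 90 and 5.24 to 17.1 in PANC-1. NFKB2 and RELA, subunits of NF-kB, were higher in PANC-1 (1.19, SE 0.179 and 0.63, SE 0.171), and NFKB1 was lower (-0.73, SE 0.143). The inhibitor TNFAIP3, or A20, was at 9.37, 11.4 and 6.92 FPKM in 90 and 1.74, 1.63 and 1.81 in PANC-1 (difference -1.88 in log2, SE 0.229, adjusted p = 0.00299). NFKBIB, an IκB protein, was higher, at 151, 169.7 and 127 FPKM against 14.9, 12.6 and 15.7 (difference 3.28 in log2, SE 0.167, adjusted p = 2.55e-04). It lies on chromosome 19 at 38899666 to 38908889, among neighbours that were nearly all higher. Of 23 tested genes 10 were higher and 7 lower. NFKB2, RELA and NFKB1 were not called once 1 library was left out (each of the 6 for at least 1 of them, adjusted p up to 0.179). RELA lost its call after scaling by the median ratio. The filter on low values was passed through 1 line alone by BCL2A1 (PANC-1).

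Cytokines formed opposite sets in the lines. IL1B, the secreted form of interleukin 1, was at 174, 137 and 136 FPKM in 90 and 0.0859, 0.812 and 0.126 in PANC-1 (difference -6.84 in log2), and its antagonist IL1RN was likewise restricted to 90, at 35.7 to 43.2 against 0 to 0.119. CSF1, the growth factor of macrophages, was higher in PANC-1, at 61.2, 65.7 and 53.9 FPKM against 2.71, 2.29 and 2.77 (difference 4.09 in log2, SE 0.154, adjusted p = 1.79e-04), while CSF2, which acts on granulocytes, was at 9.998 to 14.4 FPKM in 90 and 0 to 0.185 in PANC-1. Among chemokines CCL20 was at 19.2, 50.02 and 26.6 FPKM in 90 and 0.345, 0.544 and 0.317 in PANC-1, and the monocyte attractant CCL2 at 0.3, 0.205 and 0.0701 and 134, 101 and 145 (difference 6.73 in log2). Of these 6 genes only CSF1 reached 1 FPKM in both lines, and it did not overlap between them. Receptors for interleukin 4 parted, IL4R lower (-1.92, SE 0.166) and IL13RA1 higher in PANC-1 (2.30, SE 0.39). Of 27 tested interleukin genes 15 were lower and 7 higher, and of 11 chemokine genes 7 and 2. As 9 and 5 of these passed only through 90, the counts over members measured in both lines were 6 lower and 6 higher of 16, and 3 and 0 of 4. The call of IL13RA1 was lost without 1 of the libraries (NC of 90, adjusted p = 0.0502). Passing the filter through 1 line alone applied to IL1B, IL1RN, CSF2 and CCL20 (90) and CCL2 (PANC-1).

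Of the tested genes of cell-cycle entry 26.3% were called, beside 38.8% of all tested genes. CCND1, or cyclin D1, was at 96.8, 85 and 72.4 FPKM in 90 and 71.9, 79.6 and 80.1 in PANC-1 and not called, and CDK4 was not called (0.45, SE 0.168). CCNE1, or cyclin E1, and CDKN2C, an inhibitor of CDK4 and CDK6, were higher in PANC-1 (0.86, SE 0.149 and 1.45, SE 0.132). CDKN2A, a tumour suppressor often deleted in PDAC, stood at 0 to 0.0724 FPKM in 90 and 0.0368 to 0.189 in PANC-1, and CDKN2B at 0 to 0.0141 and 0 to 0.023, too low in both lines to be tested. MTAP, their neighbour, was at 4.24 to 10.3 and 4.94 to 6.33 FPKM and not called. The list had 3 higher, 2 lower and 14 not called of 19. CDKN1A, an inhibitor of cyclin-dependent kinases, was not called, at 42 to 52.1 FPKM in 90 and 27.9 to 37.7 in PANC-1. SFN, or stratifin, an epithelial gene, was lower (-2.74, SE 0.218). With 1 library fewer, CCNE1 did not pass (NC of 90 or NC of PANC-1, adjusted p up to 0.0881). CCNE1 lost its call after scaling by the median ratio.

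**Figure D3:**
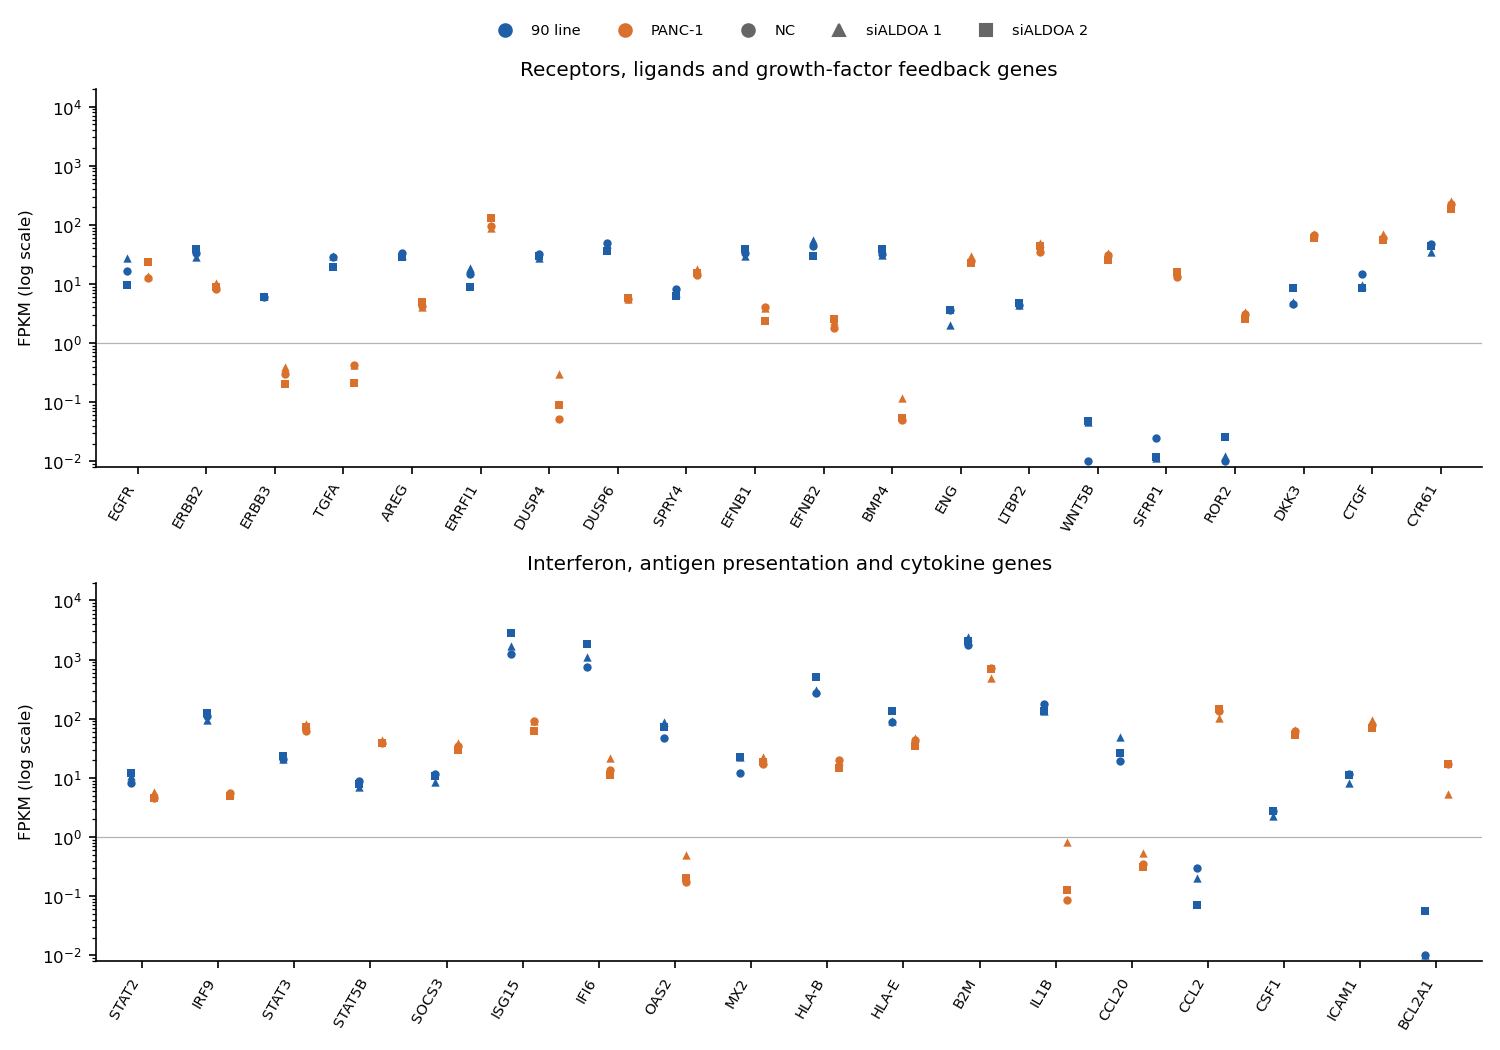
Levels of signalling genes in FPKM (log axis, values under 0.01 drawn at 0.01) in each library, marked as in the plot of lineage genes. EGFR and MX2 overlap between the lines, TGFA, BMP4, IL1B and CCL20 are high in 90, and WNT5B, SFRP1 and CCL2 in PANC-1.

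In glycolysis, which turns glucose into pyruvate, 5 of 24 tested genes were higher and 8 lower in PANC-1. ALDOC, the minor aldolase, was at 35.3, 19.95 and 29.5 FPKM in 90 and 3.15, 2.08 and 1.86 in PANC-1 (difference -3.10 in log2, SE 0.198, adjusted p = 4.61e-04). ALDOA, whose siRNA was used in both lines, was at 726, 262 and 318 and 906, 501 and 462 FPKM. The lines overlapped, and with the siALDOA term in the fit it was called higher in PANC-1 (0.60, SE 0.151, adjusted p = 0.0319). Steps of the lower part were mixed, GAPDH at 3792 to 5509.6 FPKM in 90 and 2210.2 to 2905 in PANC-1, lower in PANC-1 (-0.84, SE 0.205), and ENO1, or enolase, at 701 to 967 and 1306 to 1678, higher (0.84, SE 0.182). PKM, which makes pyruvate, was lower (-0.70, SE 0.194). FBP1, of gluconeogenesis, was at 1.77 to 2.57 FPKM in 90 and 0 to 0.0669 in PANC-1. After scaling by the median ratio, glycolysis genes counted 0 higher and 6 lower, and without NC of the 90 line 0 higher and 4 lower. When each library was left out in turn, ALDOA, GAPDH, ENO1 and PKM lost their calls at least once (each of the 6 for at least 1 of them, adjusted p up to 0.2). ALDOA, GAPDH, ENO1 and PKM lost their calls after scaling by the median ratio. In this group FBP1 (90) passed the filter through 1 line alone.

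At pyruvate the lines differed in the lactate dehydrogenase subunits and in the entry to oxaloacetate. LDHA was at 373, 314 and 330.5 FPKM in 90 and 579.5, 620.1 and 568 in PANC-1 (difference 0.80 in log2, SE 0.115, adjusted p = 0.00518), and LDHB at 0.987, 0.533 and 0.239 and 343, 198 and 394. Summed per length, lactate dehydrogenase mRNA was therefore nearly all LDHA in 90 and a mixture in PANC-1. Pyruvate carboxylase (PC) was lower in PANC-1, at 4.14, 4.48 and 3.41 FPKM against 23.9, 16.9 and 25 (difference -2.18 in log2, SE 0.213, adjusted p = 0.0015), and so was PCK2, the mitochondrial enzyme that turns oxaloacetate into phosphoenolpyruvate (-2.34, SE 0.193). The pyruvate dehydrogenase subunit PDHA1 was lower by less (-0.53, SE 0.112), and the lactate exporter SLC16A3 was not called (0.62, SE 0.193). In total 4 of 17 were lower and 2 higher, so 35.3% were called beside 38.8% of all tested genes. Without 1 of the libraries, PDHA1 was no longer called (each of the 6 in turn, adjusted p up to 0.171). LDHA lost its call after scaling by the median ratio and the GC correction. PDHA1 lost its call after scaling by the median ratio. Low values in the other line left LDHB (PANC-1) passing the filter through 1 line alone.

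Mitochondrial enzymes encoded in the nucleus were called at a share below that of all tested genes, 37.5% in the TCA cycle and 31.9% for oxidative phosphorylation beside 38.8%. In the TCA cycle 8 of 24 tested genes were higher and 1 lower (median 0.24). After scaling by the median ratio these counts were 4 higher and 2 lower. SDHB, a subunit of succinate dehydrogenase, was at 79.4, 68.3 and 82 FPKM in 90 and 199, 201 and 172 in PANC-1 (difference 1.30 in log2, SE 0.13, adjusted p = 0.00162), MDH2, malate dehydrogenase, at 122, 93.2 and 128 and 254, 251 and 197 (difference 1.03 in log2, SE 0.176, adjusted p = 0.00912). The malic enzymes ME1 and ME2, which make NADPH or NADH from malate, were both higher (1.15, SE 0.311 and 1.57, SE 0.394). DLST, of the oxoglutarate dehydrogenase complex, was the 1 lower gene, at 43.5, 48.3 and 38.4 FPKM against 122, 99.5 and 127 (difference -1.40 in log2, SE 0.159, adjusted p = 0.00239). It lies on chromosome 14, where many genes were lower. Of 47 tested nuclear subunits of oxidative phosphorylation 13 were higher and 2 lower (median 0.24). With that scaling they became 6 higher and 1 lower. NDUFA1, a complex I subunit, was higher, at 77.8, 65 and 74.1 FPKM in 90 and 271, 224 and 212 in PANC-1 (difference 1.69 in log2, SE 0.113, adjusted p = 5.08e-04). COX7A1, a muscle-type subunit, was at 2.49 to 3.32 FPKM in 90 and 0 to 0.28 in PANC-1. Of the 13 subunits encoded in mitochondrial DNA 9 were not called, 3 lower and 1 higher, so 30.8% were called. COX1 was lower (-0.90, SE 0.17) and ATP6 was not called (0.05, SE 0.159). Quantile normalization gave 5 higher and 3 lower for the mitochondrially encoded subunits. Leaving out a single library ended the calls of MDH2, ME1, ME2 and COX1 (NC of 90, siALDOA 2 of 90, NC of PANC-1 or siALDOA 2 of PANC-1, adjusted p up to 0.189). MDH2 lost its call after scaling by the median ratio. ME1 lost its call after rescaling to TPM. Through 1 line alone the filter was passed by COX7A1 (90).

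The serine synthesis route differed enzyme by enzyme. PHGDH, which starts it, was lower in PANC-1, at 25.1, 30.8 and 20.7 FPKM against 142, 104 and 126 (difference -2.24 in log2, SE 0.201, adjusted p = 0.00118). PSAT1, the next enzyme, was at 0.0249, 0.0227 and 0.0233 FPKM in 90 and 29.6, 33.8 and 36.7 in PANC-1 (difference 5.06 in log2), so that the 90 line listed less than 0.1 FPKM in each library. PSPH, the last step, was higher in PANC-1 (1.02, SE 0.145), with 11.4, 10.3 and 9.8 FPKM in 90 and 21.3, 24.4 and 21.2. The folate enzymes SHMT2 and SHMT1 were lower (-0.68, SE 0.165 and -0.82, SE 0.159), and MTHFD2 was not called (0.40, SE 0.288). Of 20 tested genes 5 were higher and 5 lower. SHMT2 and SHMT1 were not called once 1 library was left out (NC of 90, siALDOA 2 of 90, NC of PANC-1 or siALDOA 2 of PANC-1, adjusted p up to 0.173). SHMT2 lost its call after scaling by the median ratio. Values of 1 line alone carried PSAT1 (PANC-1) past the filter.

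Nitrogen metabolism differed at arginine, glutamine and proline. ASS1, argininosuccinate synthase, which lets cells make arginine, was at 27.5, 18.9 and 21.6 FPKM in 90 and 3.2, 2.97 and 2.8 in PANC-1 (difference -2.55 in log2, SE 0.161, adjusted p = 4.44e-04). Glutamine synthetase (GLUL) was at 40.7, 38 and 43.9 and 8.8, 9.25 and 8.14 (difference -2.10 in log2, SE 0.136, adjusted p = 4.66e-04). The aspartate aminotransferases were exchanged, the cytosolic GOT1 higher (1.04, SE 0.175) and the mitochondrial GOT2 lower in PANC-1 (-0.77, SE 0.152). The proline enzyme PYCR1 was higher (1.19, SE 0.166). SRM, spermidine synthase, was higher (1.32, SE 0.177). The list had 9 lower and 5 higher of 29. The calls of GOT1 and GOT2 were lost without 1 of the libraries (NC of 90, siALDOA 2 of 90, NC of PANC-1 or siALDOA 2 of PANC-1, adjusted p up to 0.118). GOT1 and GOT2 lost their calls after scaling by the median ratio.

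The CTP synthases were called in opposite directions. Of these, CTPS1 was at 38.8, 33 and 31.1 FPKM in 90 and 115, 139 and 118 in PANC-1 (difference 1.83 in log2, SE 0.148, adjusted p = 8.90e-04), and CTPS2 at 6.79, 7.49 and 3.68 and 0.942, 0.995 and 1.43 (difference -1.68 in log2, SE 0.299, adjusted p = 0.0103). CTPS1 was higher and CTPS2 lower in every PANC-1 library. The ribose phosphate synthetase PRPS1 was higher, at 178, 211 and 174 FPKM against 25.8, 21.3 and 25 (difference 2.91 in log2, SE 0.146, adjusted p = 2.46e-04), and PRPS2 was not called (-0.88, SE 0.52). Routes to NAD differed as well. QPRT, of the route from tryptophan, was at 0.274, 0.156 and 0.0319 FPKM in 90 and 20.8, 24.3 and 18.7 in PANC-1, NAPRT1, of the route from nicotinic acid, was lower (-2.43, SE 0.164), and NAMPT, of the salvage route, was not called (-0.47, SE 0.883). CDA, cytidine deaminase, which inactivates gemcitabine, was at 36, 27.7 and 46.6 FPKM in 90 and 0.606, 1.38 and 0.556 in PANC-1 (difference -4.35 in log2, SE 0.29, adjusted p = 5.05e-04), and thymidine phosphorylase (TYMP) was lower (-2.51, SE 0.294). Thymidylate synthase (TYMS) was higher in PANC-1 (1.28, SE 0.145). Altogether 9 of 36 genes were higher and 9 lower. In the pentose phosphate pathway 7 of 10 genes were not called, so 30.0% were called beside 38.8% of all tested genes. With 1 library fewer, CTPS2 did not pass (NC of 90 or NC of PANC-1, adjusted p up to 0.0775). The filter on low values was passed through 1 line alone by QPRT (PANC-1).

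Lipid genes of elongation and activation differed, and fatty acid synthase did not pass the test. FASN, fatty acid synthase, was at 98.6, 78.8 and 112 FPKM in 90 and 89.7, 115 and 88 in PANC-1 and not called. ELOVL2, which elongates polyunsaturated fatty acids, was at 0.0258 to 0.0414 in 90 and 18.2 to 38.1 in PANC-1, and ELOVL6, which elongates saturated ones, was lower (-2.42, SE 0.556). The acyl-CoA synthetase ACSL5 was at 30.9 to 33.9 FPKM in 90 and 0.401 to 0.426 in PANC-1. DGAT2, of triglyceride synthesis, was higher in PANC-1, at 27.5, 29.6 and 23.5 FPKM against 5.8, 3.66 and 3.9 (difference 2.37 in log2, SE 0.183, adjusted p = 7.74e-04). The acetyl-CoA synthetases were exchanged, the cytosolic ACSS2 lower (-2.45, SE 0.206) and the mitochondrial ACSS1 higher (1.71, SE 0.211). In cholesterol synthesis 18 of 25 genes were not called, so 28.0% were called beside 38.8% of all tested genes. FDFT1, squalene synthase, and its regulator SREBF2 were lower (-1.91, SE 0.167 and -1.53, SE 0.187). The fatty acid list had 10 lower and 6 higher of 33. When each library was left out in turn, ELOVL6 lost its call at least once (NC of 90, NC of PANC-1, siALDOA 1 of PANC-1 or siALDOA 2 of PANC-1, adjusted p up to 0.0957). Passing the filter through 1 line alone applied to ACSL5 (90) and ELOVL2 (PANC-1).

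Detoxifying oxidoreductases were lower in PANC-1. ALDH1A3, which makes retinoic acid, was at 211, 235 and 129.9 FPKM in 90 and 23.5, 28.9 and 34 in PANC-1 (difference -2.67 in log2, SE 0.285, adjusted p = 0.00199). ALDH3A1, an aldehyde dehydrogenase of cornea and stomach, was at 458, 314 and 402 and 0.327, 1.62 and 0.315 (difference -7.87 in log2, SE 0.345, adjusted p = 2.12e-04), and AKR1C3, an aldo-keto reductase of steroids and prostaglandins, at 29.6, 36.8 and 37.1 and 0.277, 1.23 and 0.392 (difference -4.48 in log2, SE 0.231, adjusted p = 2.59e-04). The PANC-1 values were a small fraction of the 90 values in each library. AKR1A1 was not called, at 44.4 to 62.7 and 48.8 to 62.9 FPKM. Of 21 tested genes 15 were lower and 0 higher, and of the 17 at 1 FPKM or more in both lines 11 were lower (median -1.0). AKR1C genes share much sequence, and how reads were divided among them was not stated.

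Other targets of NRF2, the regulator of oxidant defence, did not follow as a group. NQO1, a quinone reductase, was lower in PANC-1, at 60.8, 60.6 and 51.9 FPKM against 217, 189 and 209 (difference -1.81 in log2, SE 0.118, adjusted p = 4.76e-04), and GPX2, a glutathione peroxidase of gut epithelium, was at 171, 144 and 202 in 90 and 0.262, 0.991 and 0.371 in PANC-1. HMOX1, heme oxygenase, was higher instead, at 11.3, 6.87 and 13.5 and 91.7, 104 and 67.7 FPKM (difference 2.96 in log2, SE 0.298, adjusted p = 0.00165). GCLM, of glutathione synthesis, was not called (0.10, SE 0.256), nor was NFE2L2, the gene of NRF2 (0.80, SE 1). Of 32 tested genes 10 were lower, 8 higher and 14 not called (median 0.09). Scaled by the median ratio, the list held 3 higher and 10 lower. SLC7A11, the cystine importer, was at 1.4, 7.39 and 1.74 FPKM in 90 and 0.342, 0.233 and 1.07 in PANC-1, without overlap but not called. In this group GPX2 (90) passed the filter through 1 line alone.

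Drug-handling genes, metal genes and hypoxia genes were mixed in the same way. CYP1B1, a dioxin-inducible cytochrome, was at 0.142 to 0.627 FPKM in 90 and 4.71 to 34.9 in PANC-1, while CYP1A1, another, was lower (-2.0). CYP24A1, which degrades vitamin D, was at 9.93 to 20.3 and 0.0714 to 0.202 FPKM. The exporter ABCC1 was higher (1.26, SE 0.166) and ABCC3 lower (-1.12, SE 0.149). Ferritin heavy chain (FTH1) was lower, at 1648, 1753 and 1260.1 FPKM against 5578, 4283 and 6179 (difference -1.78 in log2, SE 0.213, adjusted p = 0.00286), and the light chain FTL was not called (-0.32, SE 0.211). MT1A was higher (3.79, SE 0.188) and MT2A not called (0.28, SE 0.191), with metallothioneins being near-identical and uncertain. Of the genes induced by hypoxia, ADM, or adrenomedullin, was at 6.64, 5.42 and 7.25 FPKM in 90 and 91.8, 92.8 and 70.8 in PANC-1 (difference 3.53 in log2, SE 0.179, adjusted p = 2.49e-04), BNIP3, of mitophagy, at 0.22, 0.502 and 0.377 and 66.5, 51.1 and 57.5, but VEGFA and NDRG1 were lower (-1.09, SE 0.148 and -2.06, SE 0.225). Of 20 tested cytochrome and drug-handling genes 8 were lower and 6 higher, of 17 metal genes 4 and 2. Of 23 hypoxia genes 5 were higher and 4 lower (median -0.05). The share called was 70.0% for the cytochrome and drug-handling genes. It was 35.3% for the metal genes and 39.1% for the hypoxia genes, near the 38.8% of all tested genes. HIF1A was spread from 8.47 to 83.9 FPKM in 90 and from 1.89 to 22.7 in PANC-1, and was not called. Without 1 of the libraries, CYP1B1, ABCC3 and VEGFA were no longer called (NC of 90, siALDOA 2 of 90 or NC of PANC-1, adjusted p up to 0.0964). Low values in the other line left CYP1A1 and CYP24A1 (90) and CYP1B1 and BNIP3 (PANC-1) passing the filter through 1 line alone.

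**Figure D4:**
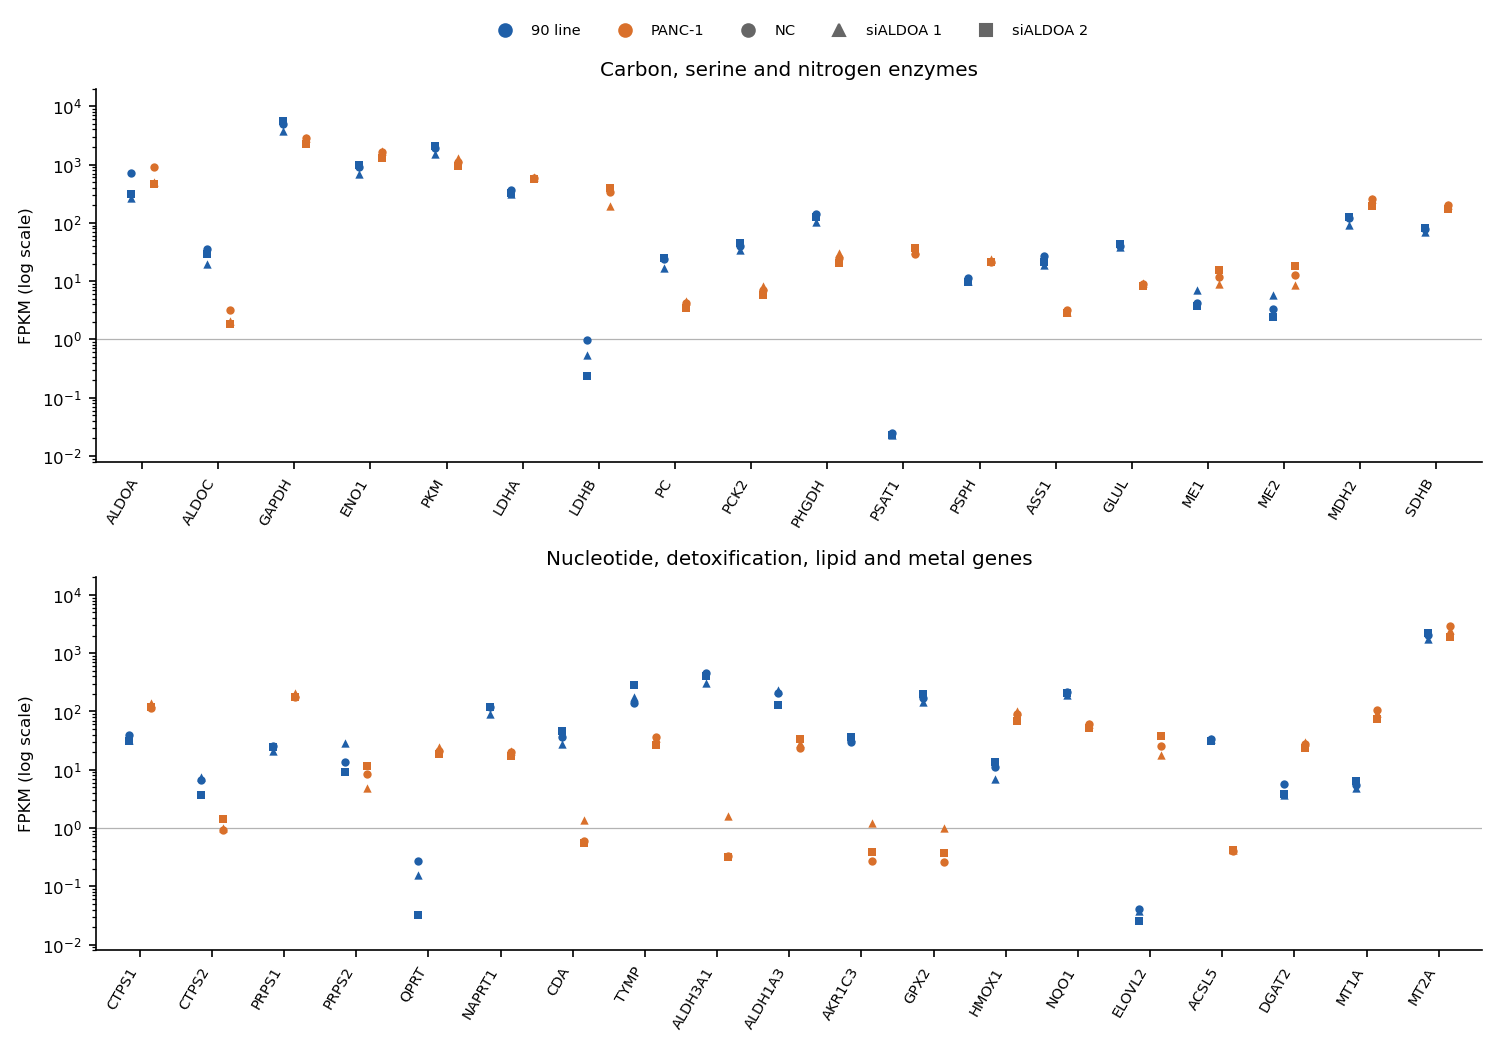
Levels of metabolic genes in FPKM (log axis, values under 0.01 drawn at 0.01) in each library, marked as in the plot of lineage genes. LDHA is high in both lines and LDHB in PANC-1, and the pairs PHGDH and PSAT1, CTPS1 and CTPS2, and QPRT and NAPRT1 run in opposite directions.

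A stricter rule took genes at 10 FPKM or more in every library of 1 line and under 0.5 FPKM in every library of the other. It found 116 genes for 90, 99 of them mRNAs, and 47 for PANC-1, all mRNAs. These values chose the genes, so they are given with no test. The 10 highest for 90 include LY6D, a surface protein of squamous cells (109 to 164 FPKM), KLK10, a secreted kallikrein (65.6 to 91.5), SERPINB5, or maspin (40.5 to 93), and LAPTM5, a lysosomal protein of blood cells (66.7 to 88.5). For PANC-1 they include PPP1R14A, an inhibitor of myosin phosphatase (370.1 to 569), PEBP1, the RAF kinase inhibitor protein (116 to 153), CD70, a ligand of the TNF family (71.7 to 100.2), BARX1, a homeobox factor of stomach mesenchyme (42.8 to 57.8), and CA8 (41.3 to 44.1). PEBP1 stood at 0.377, 0.413 and 0.141 FPKM in the 90 libraries. Just outside the rule, IFI44 was at 8.77, 94.5 and 27.9 FPKM in 90, under the limit of 10 in NC, and 0.0842, 0.398 and 0.0618 in PANC-1.

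Markers of other cell types were low in both lines, with a few exceptions. Of 14 fibroblast markers 2 were tested, COL1A1 (2.33, SE 0.194) and THY1 (2.83), and COL1A2 and DCN stood under 0.05 FPKM in every library. The summed level of the 14 was 1.45 to 2.01 FPKM in 90 and 16.2 to 21.3 in PANC-1, of which COL1A1 was 1.2 to 1.68 and 9.96 to 13.7. Of 10 endothelial markers CDH5 (-2.06) and ESAM were tested and lower in PANC-1, ESAM at 19.9 to 28.9 FPKM in 90 and 0.8 to 1.32 in PANC-1, and VWF stood at 0.0639 to 0.143 and 0 to 0.0155. Summed, these were 23.8 to 32.6 FPKM in 90 and 1.05 to 1.52 in PANC-1. Of 14 leukocyte markers only CD68, a lysosomal protein that other cells also make, was tested, and it was higher in PANC-1, at 33, 31.3 and 51.2 FPKM in 90 and 144, 162 and 124 in PANC-1 (difference 1.90 in log2, SE 0.235, adjusted p = 0.00318). The summed level of the 14 was 31.7 to 52.2 FPKM in 90 and 126 to 164 in PANC-1, nearly all of it CD68, and PTPRC, the gene of CD45, was at 0, 0.00945 and 0 FPKM in 90 and 0, 0.0169 and 0 in PANC-1. Acinar markers had 1 tested of 16, islet markers 0 of 11 and hepatocyte markers 2 of 12. The acinar lipase CEL, at 3.13 to 3.38 FPKM in 90 and 0.142 to 0.249 in PANC-1, and the hepatocyte inhibitor SERPINA1, at 3.37 to 4.64 and 0.508 to 0.609, were lower. The islet hormone INS was at 0 in all 6 libraries, and the acinar enzyme CPA1 in all but siALDOA 2 of PANC-1, where it was under 0.05 FPKM. Through 1 line alone the filter was passed by CDH5, CEL and SERPINA1 (90) and THY1 (PANC-1).

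Several genes best known from blood cells were nevertheless expressed in the 90 line, singled out here after their values were seen except for LAPTM5 and ARHGDIB. ARHGDIB, an inhibitor of small GTPases, was at 296, 242 and 277 FPKM in 90 and 0.638, 1.73 and 0.658 in PANC-1 (difference -7.12 in log2, SE 0.254, adjusted p = 1.79e-04). LCP1, or L-plastin, was at 45.6, 43.1 and 30.6 and 0.0384, 0.29 and 0.141, and ARHGAP30 at 36.7, 33.1 and 41.9 and 0.0329, 0.186 and 0.0965. The endothelial and leukocyte adhesion gene ICAM2 was at 59, 47.8 and 70.1 and 0.182, 0.377 and 0.08. These 4 genes were present in all 3 libraries of 90, while PTPRC and CD3E were under 0.05 FPKM there. Values of 1 line alone carried LCP1, ARHGAP30 and ICAM2 (90) past the filter.

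Position on the chromosomes moved with the differences. Of 12075 tested genes with a RefSeq position (GRCh38.p14), those on chromosome 22 were lower in PANC-1 in 40.3% and higher in 9.38% (median -0.43), and those on chromosome 14 lower in 35.7% and higher in 5.03% (median -0.49). Chromosome 13 had a median of -0.50. Chromosomes X, 18, 7 and 10 leaned the other way, with 33.1%, 31.2%, 30.8% and 29.3% of genes higher and medians of 0.54, 0.52, 0.47 and 0.54. Over all tested genes these shares were 20.4% and 18.4%. Copy number was not measured in these libraries.

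**Figure D5:**
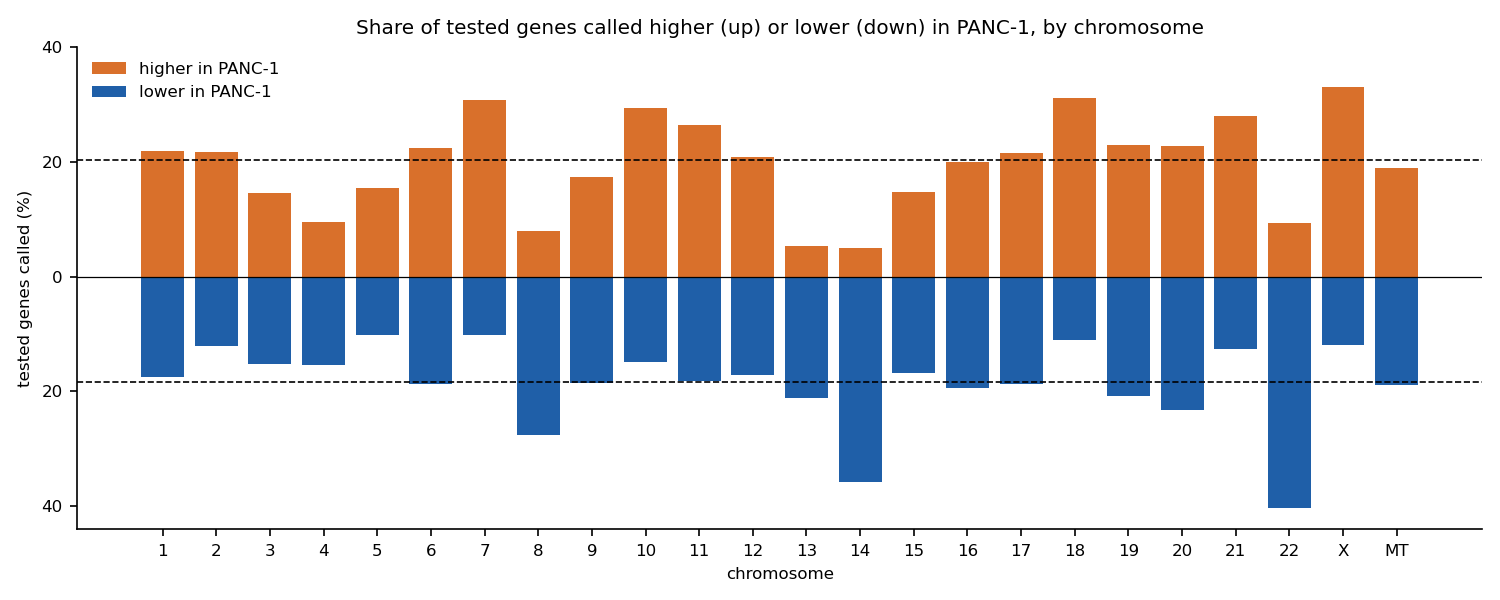
Percent of the tested genes of each chromosome called higher (upward, orange) or lower (downward, blue) in PANC-1, with dashed lines at the shares over all tested genes (20.4% and 18.4%). Chromosomes 22 and 14 reach 40.3% and 35.7% lower, and chromosome X 33.1% higher.

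Windows of 20 neighbouring tested genes showed runs in 1 direction, and several hold genes named above. On chromosome 19, from 38941401 to 39981764, FBXO17 to PSMC4, 20 of 20 genes were higher (median 3.80), with TIMM50, a mitochondrial import protein, at 19.5 to 26.9 FPKM in 90 and 739 to 961 in PANC-1. DLL3 lies in that window, and PPP1R14A and NFKBIB in the one before it, where 17 of 20 were higher. On chromosome 17, from 48070059 to 49056145, 18 of 20 genes were higher (median 1.48), the HOXB genes and IGF2BP1, a fetal RNA-binding protein (3.68), among them. On chromosome 18, from 68673688 to 80140346, 18 of 20 were higher (median 1.41). On chromosome 6, from 31879759 to 32859851, 17 of 20 were lower (median -1.36), in the MHC region that holds TAP1, TAP2, PSMB8 and PSMB9. On chromosome 14, from 23559567 to 24239242, 15 of 20 were lower (median -1.24), among them IRF9, PCK2 and PSME1. On chromosome 22, from 50170731 to 50582999, 15 of 20 were lower (median -0.96), TYMP and CPT1B included. The windows were picked for their counts, so these are descriptions with no test. The filter on low values was passed through 1 line alone by IGF2BP1 (PANC-1).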

How the data were processed

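Poly(A) RNA was sequenced from 6 libraries of 2 PDAC lines. The authors deposited 1 table of FPKM values. Per the submitters' processing notes HISAT2, featureCounts and build hg38 were used, without a version, strand setting or annotation. Of its 41769 rows 1 without a gene name was left out, 28 carry date-like names that spreadsheets make from gene symbols, and 4 share a symbol.

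Genes with a mean of 1 FPKM or more over the 6 libraries were fitted with limma 3.58.1 in R 4.3.3 on log2(FPKM + 1), a pseudocount of 1, with terms for line and siALDOA, an intensity trend and 3 residual degrees of freedom. P-values were adjusted by the Benjamini-Hochberg method over all 12592 genes, with a threshold of 0.05. Tested on simulated data for this comparison, with 200 of 12592 genes changed, the fit recovered 65% of changes of 2 and 93% of changes of 4 on the log2 scale, with 8 false calls. The simulated noise was independent between genes, whereas genes of the real libraries deviated together by GC content. Far more genes were also called in the real data. The simulation therefore gives no estimate of the false calls there. Depth was recovered from the steps between low values (96.5% to 97.4% of the values examined were whole multiples within 0.03). FPKM divide by the total, so a few abundant genes can shift all others.

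Members and gene lists were chosen with earlier results of these data known. Named were each list's anchor genes, the 3 called members with the largest differences in each direction, the 20 highest and 20 lowest called genes, the 10 highest line-restricted genes of each line and up to 6 genes of a window. Other genes named were chosen after their values were seen. Gene positions, promoters and microRNAs came from RefSeq (GRCh38.p14), matched by symbol, and GC content from GENCODE transcripts for 94.4% of tested genes. Alternatives covered pseudocount, filter, scaling, GC content, variance trend, model and left-out libraries. Some genes, and 1 gene list, are not reported here.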

Additional observations from a re-analysis of the deposited data

How the results depend on the processing

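All 20 alternatives were run, 19 of them with a test. Checked were the tested members of all lists, the line-restricted genes, the 20 highest and 20 lowest called genes and the window genes. Of the 730 called among them, 527 stayed called with the same sign in each of the 19, where they were tested. None was called in the opposite direction. Many of these genes, such as the line-restricted ones, were chosen for their values, so this is not the share for called genes at large. The count of called genes, 4882, was 3110 when the 4 group means were fitted, with 1524 higher. Higher calls, 2567, were 1593 after scaling by the median ratio and 4586 without siALDOA 1 of both lines, with 1 residual degree of freedom. Leaving out each library in turn gave 2359 to 4084 calls, 1124 to 2057 higher and 1210 to 2027 lower, the lowest totals coming without an NC library. NC was then a single library for the siALDOA term. The cause of this and of the other shifts was not tested.

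With NC, siALDOA 1 and siALDOA 2 as a replicate block across the lines, 3258 genes were called, 1620 higher and 1638 lower. Deviations from the line's mean in libraries of the same name correlated at -0.39, -0.87 and -0.73 over genes. Between libraries of different names the correlations ran from -0.71 to 0.89. Deviations of the libraries of a line are tied to each other through its mean, and the libraries also differed by GC content. These values therefore cannot decide whether the names pair the libraries.

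Without siALDOA 1 of both lines, 14 genes not called with all libraries took the opposite sign, and were then called: CLDN12 1.04, FZD6 1.12, GPX8 0.73, MET 0.82, NAMPT 0.91, NDUFA5 0.87, NF1 1.21, RASA1 1.28, RB1 1.17, RBL1 0.70, SKIL 1.0, SLC38A1 0.94, SUCLA2 0.64 and YAP1 0.66 as log2 differences.

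Of 41 gene lists with 5 or more called members, the count called stayed within 1.5 times in 41 after quantile normalization, 37 after scaling by the median ratio, 38 after the correction for GC content and 22 without NC of 90. Subunits encoded in mitochondrial DNA had no GC values and were not tested under that correction. Depth limits genes under about 0.17 FPKM, and 3 residual degrees of freedom limit small differences.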

Other observations

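Among the 20 called genes with the lowest differences were 3 genes of secreted protease inhibitors. SLPI, an inhibitor of neutrophil elastase, was at 522, 431 and 575 FPKM in 90 and 0.407, 3 and 1.25 in PANC-1, PI3, or elafin, at 387, 340.5 and 550.3 and 0.437, 2.4 and 1.16, and CST6, a cystatin, at 338, 247 and 404 and 0.637, 1.73 and 0.614. The iron-binding lipocalin LCN2 was at 368, 317 and 425 and 0.354, 2.17 and 0.26 FPKM (difference -7.71 in log2, SE 0.396, adjusted p = 2.59e-04). In each of these 4 genes the highest PANC-1 value was that of siALDOA 1. ANXA8, a calcium-dependent membrane-binding annexin, was at 387 to 476 and 0.417 to 2.25 FPKM, and it has the near-identical copy ANXA8L1, so its level is uncertain.

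Among the 20 with the highest differences, MCAM, an adhesion molecule known from melanoma, was at 0.106, 0.166 and 0.127 FPKM in 90 and 33.2, 40.4 and 33.9 in PANC-1 (difference 5.02 in log2), and CES1, a liver-type carboxylesterase, at 0.19, 0.222 and 0.0759 and 37.6, 37.6 and 34.6 (difference 5.02 in log2). NKX6-2, a homeobox factor, was at 0.0552 to 0.151 and 29.96 to 47.9 FPKM, and NRIP3 and ARSI at 0.0138 to 0.0443 and 0.0166 to 0.142 in 90 and 30.1 to 39.2 and 32.4 to 46.2 in PANC-1. The following genes were chosen after their values were seen. The fetal transcript H19 was at 7.41, 6.38 and 6.31 FPKM in 90 and 63.1, 67.9 and 61.4 in PANC-1 (difference 3.08 in log2, SE 0.13, adjusted p = 1.99e-04). PLAC8 was at 1.72, 1.92 and 1.75 and 40.7, 32.2 and 30.8 FPKM (difference 3.66 in log2, SE 0.166, adjusted p = 2.20e-04), and CD44, the hyaluronan receptor, at 82, 95.8 and 65.9 and 224, 239 and 271 (difference 1.59 in log2, SE 0.18, adjusted p = 0.00236), so both lines expressed CD44. GSTP1, a glutathione transferase, was lower in PANC-1 but abundant in both lines, at 1802, 1386 and 1958 and 523, 514 and 393 FPKM (difference -1.84 in log2, SE 0.191, adjusted p = 0.00182). Passing the filter through 1 line alone applied to MCAM, CES1, NKX6-2, NRIP3 and ARSI (PANC-1).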
